A study of Mus musculus with 8 samples.

Results

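The interferon regulatory factors (IRFs) are described here in mouse multipotent progenitors that were wild type or carried FLT3-ITD, a mutant of the cytokine receptor kinase FLT3 in which a stretch of the protein is repeated in tandem. A probe set, the group of array probes read as 1 value, was counted as a member if the platform annotation gave it exactly 1 gene and that gene was Irf1, Irf2, Irf3, Irf4, Irf5, Irf7, Irf8 or Irf9. This gave 14 probe sets for 8 genes, of 34945 probe sets with 1 gene and 45101 in all. Irf3 had 4 probe sets, Irf4, Irf5 and Irf8 had 2 each, and the other genes had 1 each. No probe set paired a member with another gene.

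The cells of both genotypes were sorted from bone marrow of female C57BL6 mice aged 8 to 10 weeks. The sort kept cells with Sca-1, c-Kit and CD48 on the surface and without lineage markers or CD150. Each genotype had 4 samples with 1 array each, numbered 1, 2 and 3, with a further sample 1 that carries the tag 037 and is called sample 037. The labels do not say what 037 means, how many copies of FLT3-ITD the mice carried, or whether each sample is a mouse of its own. The p-values therefore measure only how these samples vary, and that variation may be technical.

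IRFs are transcription factors that share a DNA-binding domain which recognises GAAA repeats, as in the interferon-stimulated response element (ISRE). Irf3, Irf5 and Irf7 act after pattern recognition receptors and switch on interferon and cytokine genes, Irf9 acts downstream of interferon receptors, and Irf1 and Irf2 were described as an activator and a repressor at shared sites. Irf4 and Irf8 are mainly factors of blood lineages. Irf8 in particular steers progenitors towards monocytes and dendritic cells and away from neutrophils, in part through sites shared with the ETS factor PU.1.

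Pairwise correlations between arrays ranged from 0.948 to 0.981, and FLT3-ITD sample 1 stood apart, with every correlation involving it at 0.960 or below. FLT3-ITD sample 037 showed the strongest 3′ bias of Gapdh, a measure of RNA quality, with 3′ minus 5′ control signal at 2.99 on the log2 scale against at most 2.29 in the other 7 samples. Of the genes of the gate, Kit and Cd48 lay above the array median on all 8 arrays and Slamf1, which encodes CD150, on none. Cd48 was higher in FLT3-ITD, at 10.82 to 11.08 against 9.76 to 10.11 (log2; limma adjusted p = 0.00740). Flt3 was lower in all 4 FLT3-ITD samples, at 9.02 to 9.90 against 10.41 to 10.68 in wild type (log2; limma adjusted p = 0.0406, lost without any of 7 samples, FLT3-ITD sample 1 being the exception, at up to 0.154). Its level does not check the labels, because an inserted repeat may leave the signal as it is.

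Of the family, Irf8 rose and no other tested gene passed. Each gene was represented by its brightest probe set on average, and entered the test where 4 or more of its values exceeded the array median. This held for 7 of the 8 members, with Irf4 below the array medians of 5.98 to 6.05 on every array. Among the 7, 1 passed at an adjusted p of 0.05, beside 0.604% of all 10762 genes tested, 0.427% higher and 0.177% lower. The genotypes did not overlap for 1 of the 7, Irf8, beside 6.22% of all tested genes. The median difference of the 7 was 0.27 on the log2 scale, with 6 positive and 1 negative, against a median of 0.02 over all tested genes. In a second fit of all 34945 probe sets with no filter, 1 of the 14 member probe sets passed, beside 0.157% of all. There 2 did not overlap between genotypes, beside 5.24%, and 4 had an unadjusted limma p under 0.05, beside 8.03%. The 2 were both of Irf8 and the 4 were those of Irf8 and Irf5, so these counts repeat genes.

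**Figure D1:**
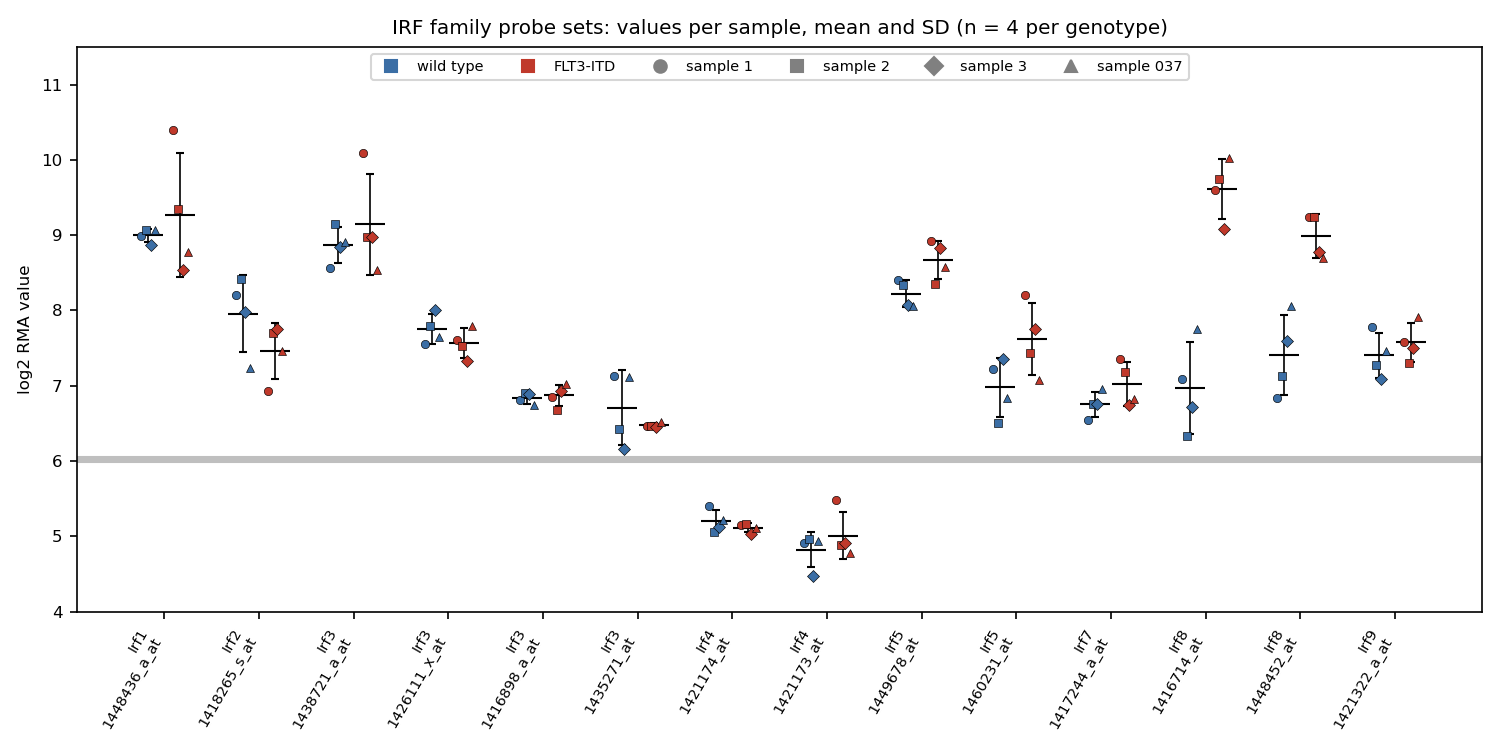
Each point is the log2 RMA value of 1 sample for the 14 IRF probe sets, with wild type in blue and FLT3-ITD in red, and bars give the mean and SD of 4 samples. The grey band spans the array medians, and the genotypes separate fully only for the probe sets of Irf8.

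Irf8 rose 6.26-fold on the probe set 1416714_at. Wild type samples 1, 2, 3 and 037 read 7.09, 6.33, 6.71 and 7.75, and FLT3-ITD samples 1, 2, 3 and 037 read 9.61, 9.74, 9.08 and 10.03 (log2). The lowest FLT3-ITD value lay above the highest wild type value, and within both genotypes sample 037 was the highest. The means were 6.97 ± 0.61 and 9.61 ± 0.40 (log2, SD, n = 4 each; exact two-sided permutation p = 0.0286, the smallest that 4 against 4 samples allow). The difference was 2.64 ± 0.31 on the log2 scale (SE; 95% interval 1.94 to 3.35; limma adjusted p = 0.00740). In bulk samples, more cells that express a gene and more RNA per cell cannot be told apart.

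The other Irf8 probe set, 1448452_at, also separated the genotypes. It read 6.84, 7.13, 7.59 and 8.06 in wild type samples 1, 2, 3 and 037, and 9.24, 9.24, 8.78 and 8.70 in the FLT3-ITD samples in the same order. Its means were 7.40 ± 0.53 and 8.99 ± 0.29 (log2, SD, n = 4 each; exact two-sided permutation p = 0.0286). The difference of 1.58 ± 0.27, or 3.00-fold, did not pass over all probe sets (limma adjusted p = 0.0798). FLT3-ITD sample 037, the highest on the first probe set, was the lowest of its genotype on this one. Between the samples tagged 037 the difference was 2.28 on the first probe set and 0.64 on the second, and between the means of the other samples it was 2.77 and 1.90. FLT3-ITD sample 037 also had the high Gapdh 3′ to 5′ difference given above, whose part in this was not tested.

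The gene call of Irf8 held on leaving out any 1 of the 8 samples, with limma adjusted p from 0.00599 to 0.039 and differences from 2.43 to 2.90. Without the doubtful FLT3-ITD samples 1 and 037 together, the difference was 2.44 ± 0.39 and did not pass (limma adjusted p = 0.0854). In the fit of all probe sets, 1416714_at passed at 0.0182 and lost the call without wild type sample 1 (0.0619), wild type sample 2 (0.0602), wild type sample 3 (0.0952) or FLT3-ITD sample 2 (0.0807). In that fit 1448452_at gained the call without wild type sample 037 (limma adjusted p = 0.0452). It did not pass on leaving out any other sample, with limma adjusted p up to 0.239.

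The promoter of Irf8 is shown because Irf8 is the member that rose, and because its window holds repeats of a motif read by STAT factors. In mouse cells Irf8 and Irf1 are known to be induced by interferon gamma. STAT5 recognises the letters TTCNNNGAA, called a GAS element. The window covers 250 bases before to 50 bases after the transcription start (RefSeq, GRCm38.p6, plus strand, chr8:120736108-120736407), and capitals mark the 2 matches to TTCNNNGAA, which reads the same on both strands. 
Irf8: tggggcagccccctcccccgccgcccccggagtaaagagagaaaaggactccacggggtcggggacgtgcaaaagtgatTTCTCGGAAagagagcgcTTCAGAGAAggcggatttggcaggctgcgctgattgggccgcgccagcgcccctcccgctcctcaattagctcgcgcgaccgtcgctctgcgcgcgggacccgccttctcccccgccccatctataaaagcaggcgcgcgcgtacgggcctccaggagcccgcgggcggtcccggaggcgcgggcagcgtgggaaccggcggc

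The matches begin 171 and 153 bases before the start. Of 32851 promoter windows of the same length, 8.3% held at least 1 match and 0.457% held 2 or more. A window at another start of Irf8 held none. All 8 members had at least 1 window in the table, 11 in all. A TTCNNNGAA match was also found in the window of Irf2 and in 1 of the 2 windows of Irf1. The GAS matches of Irf1, beginning 90 bases before the start, and of Irf2, beginning 224 bases before it, are shown in capitals with 8 bases on each side, for comparison with Irf8. 
Irf1 (chr11:53769764-53770063, plus strand): agcctgatTTCCCCGAAatgatgag
Irf2 (chr8:46739495-46739794, plus strand): attgacttTTCCGAGAAatgatgaa
The promoter of Irf2 also held the single match of the family to the ISRE core, GAAA and GAAA with any 2 bases between, and to the composite ETS-IRF motif, GGAA and GAAA with any 2 bases between. Both were searched on both strands, and the matches overlap each other. 
Irf2, ISRE core in capitals: ggggaagtGAAAATGAAAttgacttt
The ISRE core was found in 3.44% of all windows and the composite motif in 2.72%. A match is a description of letters, and no match in these windows says nothing of the factor.

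Irf4, the closest relative of Irf8 and a factor of B cells, plasma cells and some dendritic cells, was dim. Its probe set 1421174_at read 5.06 to 5.40 in wild type and 5.03 to 5.16 in FLT3-ITD (log2). The other probe set, 1421173_at, read 4.47 to 4.97 and 4.77 to 5.48. Both lay below the array median on every array, so the first test did not include Irf4. In the fit of all probe sets the differences were −0.09 ± 0.11 (95% interval −0.34 to 0.16) and 0.19 ± 0.19 (−0.24 to 0.61), with limma adjusted p of 0.879 and 0.85. The groups overlapped on both.

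Irf5, a factor of inflammatory cytokine genes in myeloid cells, read higher in FLT3-ITD on both probe sets without passing. On 1449678_at wild type samples 1, 2, 3 and 037 read 8.40, 8.34, 8.07 and 8.06, and FLT3-ITD samples 8.92, 8.36, 8.83 and 8.58 (log2). FLT3-ITD sample 2 lay below wild type sample 1, and the other 3 FLT3-ITD samples lay above all wild type samples. The difference was 0.45 ± 0.16 (SE; 95% interval 0.08 to 0.82; unadjusted limma p = 0.0220, adjusted p = 0.417; exact two-sided permutation p = 0.0571). On 1460231_at wild type samples read 7.22, 6.50, 7.36 and 6.84, and FLT3-ITD samples 8.20, 7.43, 7.76 and 7.08. The difference there was 0.64 ± 0.27 (95% interval 0.02 to 1.26; limma adjusted p = 0.61), again with 3 FLT3-ITD samples above all of wild type. In the fit of all probe sets the interval of 1460231_at reached up to 2.40-fold, below the interval of the first Irf8 probe set, 3.81 to 10.3-fold, and within that of the second, 1.96 to 4.58-fold.

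Irf7, the main amplifier of type I interferon production, read 6.54, 6.75, 6.76 and 6.96 in wild type and 7.35, 7.18, 6.75 and 6.82 in FLT3-ITD. Samples 1 and 2 of FLT3-ITD were above all wild type samples, and samples 3 and 037 lay among them. The difference was 0.27 ± 0.17 (95% interval −0.11 to 0.66; limma adjusted p = 0.678).

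Irf3, which is present in most cells and is switched on by phosphorylation, gave probe sets of different sign. The brightest, 1438721_a_at, read 8.56, 9.14, 8.84 and 8.91 in wild type and 10.09, 8.97, 8.97 and 8.53 in FLT3-ITD. Sample 1 of FLT3-ITD was the highest of the 8 and sample 037 the lowest. The difference was 0.28 ± 0.31 (limma adjusted p = 0.828) and became −0.04 without FLT3-ITD sample 1. The other 3 probe sets differed by −0.24, −0.19 and 0.03 in the fit of all probe sets, with limma adjusted p from 0.806 to 0.963. One of them, 1426111_x_at, is of a type open to cross-hybridisation.

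Irf9, which binds the ISRE after type I interferon signalling, read 7.09 to 7.78 in wild type and 7.30 to 7.92 in FLT3-ITD. The ranges largely coincided. The difference was 0.17 ± 0.19 (95% interval −0.26 to 0.60; limma adjusted p = 0.826).

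Irf1, an activator induced by interferon gamma, read 8.99, 9.06, 8.88 and 9.06 in wild type and 10.40, 9.35, 8.54 and 8.78 in FLT3-ITD. Wild type was tight, at 9.0 ± 0.09 (log2, SD, n = 4), while FLT3-ITD was spread on both sides of it, at 9.27 ± 0.83. The difference was 0.27 ± 0.36 (95% interval −0.54 to 1.08; limma adjusted p = 0.86), and −0.11 without FLT3-ITD sample 1, which was the highest.

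Irf2 was the single tested member with a negative difference. Wild type samples read 8.20, 8.42, 7.98 and 7.23, and FLT3-ITD samples 6.93, 7.70, 7.75 and 7.47. Wild type sample 037 lay within the FLT3-ITD range and the other 3 wild type samples above it. The difference was −0.50 ± 0.28 (95% interval −1.13 to 0.14; limma adjusted p = 0.638). Its probe set, 1418265_s_at, is also of a type open to shared transcripts.

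**Figure D2:**
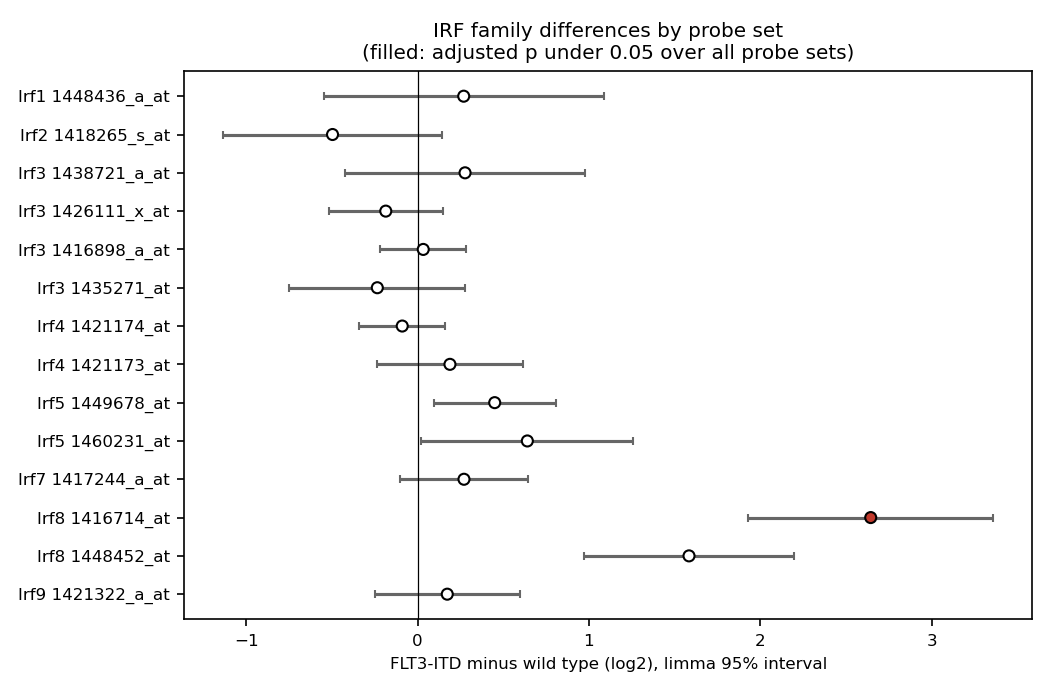
Points are differences between FLT3-ITD and wild type (log2) for the 14 IRF probe sets with limma 95% intervals, and a filled point passed at an adjusted p of 0.05 over all 34945 probe sets. The probe sets of Irf8 lie at 2.64 and 1.58, and those of the other members between −0.50 and 0.64.

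The pathway around the IRFs was followed with 9 lists holding 138 different genes, of which 108 were tested. In all 8 passed, each higher in FLT3-ITD, beside 0.427% of all tested genes called higher. Some genes stand in several lists. The count is a description of lists chosen with earlier results of these data known.

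Of the genes that signal to the IRFs, 17 of 24 listed were tested, and 1, Tlr3, rose (list median 0.01). An unadjusted limma p under 0.05 was found for 4 of the 17, Tlr3 included, beside 9.58% of all tested genes. The same share stands beside the counts of this kind in the lists below. Tlr3 encodes an endosomal receptor for double-stranded RNA that acts on Irf3. It read 4.58 to 5.72 in wild type and 7.59 to 10.21 in FLT3-ITD, where sample 037 was the lowest, a difference of 4.36 ± 0.57 (limma adjusted p = 0.0122). It was above the array median in the FLT3-ITD samples only, so it passed the filter through the group where it was high. The call was lost without wild type sample 3 (0.0631) or wild type sample 037 (0.0518). The Tlr3 probe set, 1422782_s_at, is of a type open to shared transcripts.

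Interferon receptors and their JAK-STAT chain had no gene past the test among 12 tested of 15 listed (list median 0.02), with 1 at an unadjusted limma p under 0.05. The smallest p were those of Ifngr2, a chain of the interferon gamma receptor, at 0.47 ± 0.20 (limma adjusted p = 0.5), and of the kinase gene Jak2, at 0.60 ± 0.28 (0.561). Of 10 interferon genes listed, 6 had a probe set, and 4 lay below the array median in both genotypes. The 2 tested, Ifna5 and Ifna1, differed by 0.08 ± 0.13 and 0.06 ± 0.13, with limma adjusted p of 0.885 and 0.926. Their probe sets, 1450614_x_at and 1450564_x_at, are of a type open to cross-hybridisation.

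Of 28 tested interferon-stimulated genes, with 34 listed, 1 rose and 10 had a positive difference (list median −0.08). An unadjusted limma p under 0.05 was found for 7 of the 28, beside 9.58% of all tested genes. Over the 31 with a probe set, the genotypes did not overlap for 5 that were higher in FLT3-ITD and 1 that was lower. The share over all probe sets, in either direction, was 5.24%. The gene that rose was Ifitm1, a membrane protein gene that restricts virus entry. It read 11.09, 10.94, 10.74 and 9.99 in wild type and 12.51, 12.28, 12.23 and 12.07 in FLT3-ITD, a difference of 1.58 ± 0.24 (limma adjusted p = 0.0248). The groups did not overlap, and wild type sample 037 was the lowest. The call held on leaving out wild type sample 1 or wild type sample 037 and was lost on leaving out any other sample, with limma adjusted p of 0.0518 to 0.104.

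Partner and cofactor genes had none past the test among 14 tested of 16 listed, with 4 positive differences (list median −0.09) and 1 at an unadjusted limma p under 0.05. Spi1, which encodes PU.1, the partner of Irf4 and Irf8 on composite sites, read 7.56 to 7.91 in wild type and 7.87 to 8.14 in FLT3-ITD, a difference of 0.29 ± 0.13 (limma adjusted p = 0.527). Batf, a basic leucine zipper partner of Irf4 and Irf8, read 8.07 to 8.53 and 7.88 to 7.99, a difference of −0.31 ± 0.13 (limma adjusted p = 0.508) with no overlap.

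All 10 genes listed as regulators of Irf8 were tested and 1, Id2, rose (list median 0.31; 3 at an unadjusted limma p under 0.05). Id2, which blocks E proteins and is needed for some dendritic cells, read 4.75 to 5.67 in wild type and 8.31 to 9.41 in FLT3-ITD, a difference of 3.76 ± 0.28 (limma adjusted p = 0.000765). It too was above the array median in FLT3-ITD samples only, and as the mean over its probe sets the difference was 2.15.

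Of 9 tested genes reported as IRF8 targets in myeloid cells, with 11 listed, 1 rose and 8 were positive (list median 0.30; 2 at an unadjusted limma p under 0.05). Cst3, the protease inhibitor cystatin C, read 10.87, 10.84, 10.96 and 11.04 in wild type and 12.81, 12.66, 12.56 and 11.87 in FLT3-ITD, a difference of 1.54 ± 0.20 (limma adjusted p = 0.0122). Its call was lost without wild type sample 2 (0.0591), wild type sample 3 (0.0583) or FLT3-ITD sample 2 (0.0517). Ciita, whose protein switches on MHC class II transcription, chosen after its values were seen, read 5.80 to 6.02 in wild type and 6.75 to 8.30 in FLT3-ITD, with no overlap and limma adjusted p = 0.183. Of its FLT3-ITD values, only that of sample 1 lay above 6.90.

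The MHC class II list had 4 rises among 10 tested of 12 listed, with a median of 1.32 and 8 at an unadjusted limma p under 0.05. They were H2-Ab1 at 3.58 ± 0.18, H2-Aa at 3.13 ± 0.21, the invariant chain gene Cd74 at 4.12 ± 0.31 and H2-Eb1 at 4.02 ± 0.38 (limma adjusted p from 5.42e-05 to 0.00279). Read from its probe set of largest variance, H2-Aa differed by 4.999. The H2-Aa probe set of the main fit, 1438858_x_at, is of a type open to cross-hybridisation. That of H2-Ab1, 1450648_s_at, is of a type open to shared transcripts. In each of these 4 genes, FLT3-ITD sample 1 was the highest and FLT3-ITD sample 037 the lowest of the FLT3-ITD samples. Of the FLT3-ITD samples, sample 037 was the highest on the first Irf8 probe set and the lowest on the second. MHC class I presentation genes, many of them targets of Irf1, had none past the test among 11 tested (list median 0.10; 1 at an unadjusted limma p under 0.05). Psmb9, an immunoproteasome subunit gene, read 10.76 to 10.88 in wild type and 10.90 to 11.37 in FLT3-ITD, a difference of 0.30 ± 0.13 with no overlap (limma adjusted p = 0.517), and Psmb8, another such subunit gene, differed by 0.22 ± 0.16 (0.735).

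**Figure D3:**
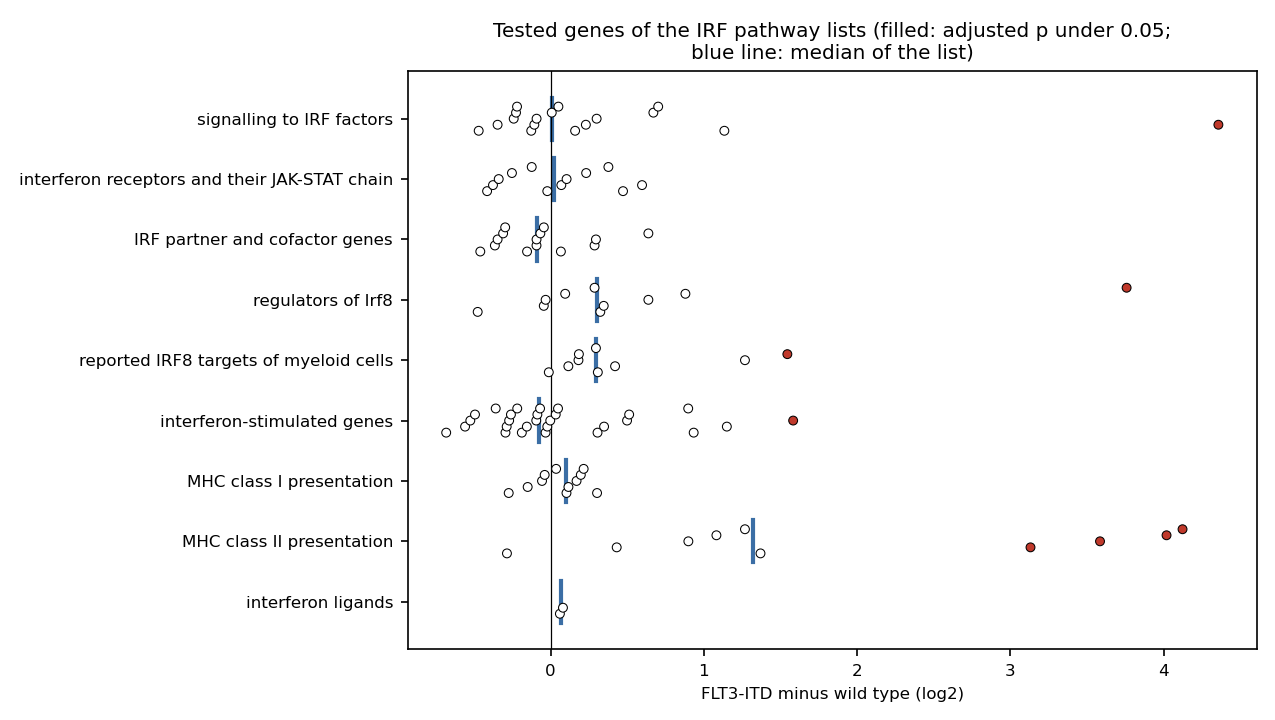
Each point is the difference between FLT3-ITD and wild type (log2) of 1 tested gene in the 9 pathway lists, filled where the limma adjusted p was under 0.05, and the blue line is the median of the list. The 4 filled points of MHC class II lie between 3.13 and 4.12, and the lists of interferon receptors, partners, MHC class I genes and interferon genes have none.

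Markers of other blood cells, those that express Irf8 first, were measured in the same samples. For conventional dendritic cells, 9 of 11 genes with a probe set had a positive difference, and the mean level over the 11 was 5.19 to 5.44 in wild type and 5.60 to 6.32 in FLT3-ITD (log2). Only 4 of the 11 were tested and none passed, and 4 lay below the array median in both genotypes. The genotypes did not overlap for 5 of the 11, all higher in FLT3-ITD, beside 5.24% of all probe sets. Zbtb46, a factor restricted to the conventional dendritic lineage among myeloid cells, read 4.46 to 6.13 in wild type and 7.02 to 9.06 in FLT3-ITD, with no overlap (limma adjusted p = 0.124; chosen after its values were seen). Plasmacytoid dendritic cell markers had 3 of 8 positive, with a mean level of 6.74 to 7.07 and 6.69 to 7.05. Monocyte and macrophage markers had 6 of 12 positive, at 5.41 to 5.80 and 5.73 to 6.13. Of these, 8 lay below the array median in both genotypes and 3 were tested. Among the 3, 1 rose, the chemokine receptor gene Ccr2, by 3.62 ± 0.52 (limma adjusted p = 0.0213). That call was lost without sample 1 or 3 of wild type or sample 2 or 3 of FLT3-ITD (limma adjusted p up to 0.0766). B cell markers had 5 of 11 positive, at 5.78 to 6.07 and 5.68 to 6.02. Other lineages moved as well. Of 6 tested erythroid genes 3 fell, with Hbb-b2, a beta globin gene with near-identical copies, at 9.55 to 10.15 in wild type and 6.60 to 8.01 in FLT3-ITD (limma adjusted p = 0.00576). The erythroid regulator gene Hemgn fell by 1.52 and Slc4a1, the red cell anion exchanger gene, fell by 2.10 (log2; limma adjusted p of 0.0286 and 0.0336). Hemgn kept its call only without FLT3-ITD sample 1 or 037, and Slc4a1 only without wild type or FLT3-ITD sample 3, with limma adjusted p of 0.0695 to 0.135 on leaving out any other sample. Slc4a1 was above the array median in wild type samples only. The mean level over the 8 erythroid genes with a probe set was 7.30 to 7.63 in wild type and 6.26 to 6.79 in FLT3-ITD. None of 6 tested neutrophil genes passed and none had a positive difference (list median −1.59), with 3 at an unadjusted limma p under 0.05. Their list's mean level over 9 genes was 6.58 to 7.89 and 5.49 to 7.42. The part of any of these cells in the rise of Irf8 was not tested.

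The genes nearest to Irf8 were found by the root mean square difference of profiles over the 8 arrays, after each gene was centred on its own mean. The 5 nearest of the 10762 tested genes lay at 0.35 to 0.51 on the log2 scale, against a median of 1.41 over all others. They were Emilin2, an extracellular matrix glycoprotein gene, Timp3, an inhibitor of metalloproteinases, Tnfsf11, which encodes the cytokine RANK ligand, Trgv4, a variable segment of the T cell receptor gamma locus, and Rab44, a Rab GTPase gene. Emilin2 read 5.93 to 7.04 in wild type and 8.49 to 9.80 in FLT3-ITD, a difference of 2.48 ± 0.32. Timp3 differed by 2.28 ± 0.22, Tnfsf11 by 2.37 ± 0.27, Trgv4 by 2.80 ± 0.47 and Rab44 by 1.78 ± 0.21. Timp3 and Tnfsf11 lay above the array median in FLT3-ITD samples only, and so entered the test through the genotype where they were high. Since the 5 were chosen for their likeness to Irf8 over the same 8 arrays, their differences between genotypes and the order of their samples follow from that choice and are a description, with no test.

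**Figure D4:**
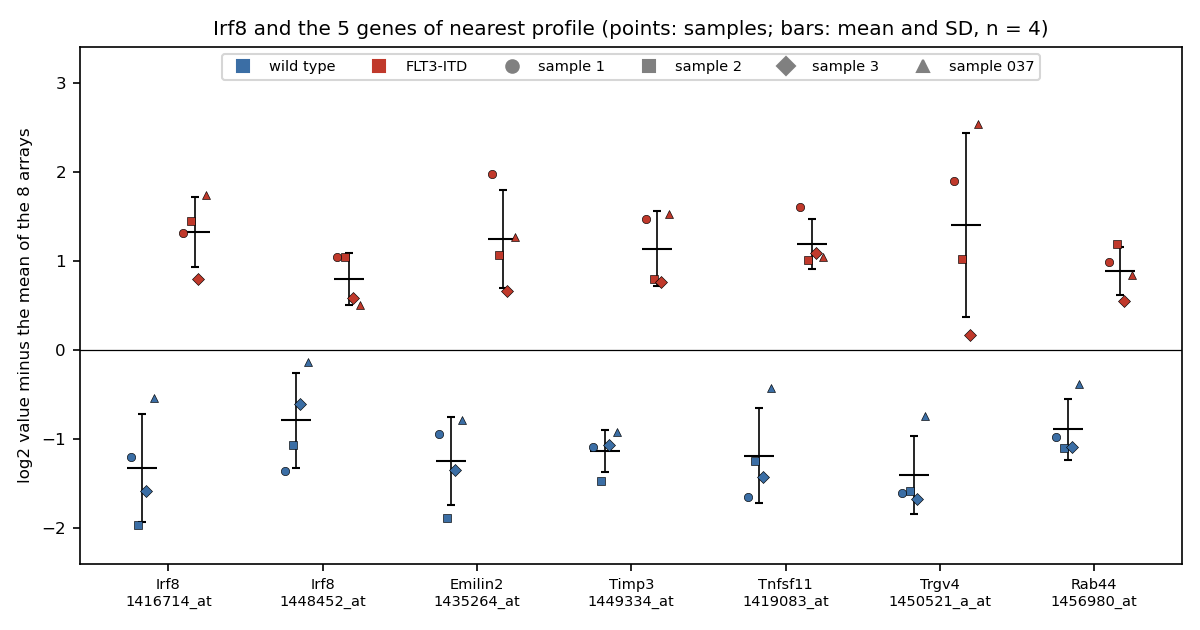
The log2 value of each sample minus the mean of the 8 arrays is drawn for the Irf8 probe sets and the 5 genes of nearest profile, with bars for the mean and SD of 4 samples per genotype. Wild type values lie below 0 and FLT3-ITD values above it for all of them, and among wild type samples the triangle of sample 037 is the highest, which the choice of genes by likeness to Irf8 favours.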

How the data were processed

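Per the labels' protocols, Trizol RNA was amplified (NuGEN WT-Ovation Pico) before hybridisation. The authors deposited log2 values for each probe set, and RMA is named in the submitters' processing notes. RMA corrects background, brings arrays to 1 distribution and summarises probes. Values ran from 1.96 to 14.6. The number of arrays limits the precision. Signal over scanner background was not used here.

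Gene names came from the platform annotation of 2016, with symbols updated by Entrez ID (34741 of 34945 probe sets) through a RefSeq table of GRCm38.p6. Each of 18194 genes was represented by its brightest probe set on average, and entered the test where 4 or more of its values exceeded the array median. The genotypes were compared in limma 3.58.1 (R 4.3.3), with no covariate, Benjamini-Hochberg adjustment over all genes or all probe sets, and a threshold of 0.05. Intervals use limma's moderated variance. The procedure was tested on simulated data. Samples with the same number were not treated as pairs in the main fit, and a replicate block was run as an alternative. The correlation of deviations from the genotype means was 0.027 to 0.11 between samples with the same number. Between samples with different numbers it was −0.089 to 0.054. Figures were drawn with matplotlib 3.10.9.

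The members and lists were chosen with earlier results of these data known. Named were all members, up to 4 called genes of each list or the 2 of smallest p, and the 5 nearest profiles of a called member. Other named genes were chosen after their values were seen. Alternatives were a replicate block, other treatments of the tag 037, other normalizations and filters, other probe sets for a gene, other variance models, and leaving out samples.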

Additional observations from a re-analysis of the deposited data

Results flagged for a closer look

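In 82 groups of 4 values, covering the IRF probe sets and the other named genes, 5 had a sample far from the other 3, and chance flags about 1 in 20 groups. Wild type sample 3 was the lowest of its genotype for Irf4 on 1421173_at, at 4.47, and for H2-Eb1, at 5.88. FLT3-ITD sample 1 was the highest for Tnfsf11, at 7.33. Wild type sample 037 was the highest for Trgv4, at 6.15, and for Rab44, at 8.10. Ciita, Zbtb46, Kit and Slamf1, named otherwise, were not among these groups. Their values hold further samples that lay apart within a genotype. These were FLT3-ITD sample 1 for Ciita (8.30), FLT3-ITD sample 2 for Kit (8.77), and wild type sample 1 for Zbtb46 (4.46) and Slamf1 (5.75).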

How the results depend on the processing

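The count of 1 called IRF gene was the same under 20 of 21 alternatives and 0 without FLT3-ITD samples 1 and 037 together, an alternative chosen after seeing the data that leaves 4 against 2 samples. The count of called IRF probe sets, 1, became 2 with samples 1 and 037 averaged, 0 without FLT3-ITD samples 1 and 037 together, and 0 to 2 on leaving out single samples. The 8 called pathway genes became 5 with a filter on all 8 arrays, which tests fewer genes, and 5 to 8 on leaving out single samples. With a replicate block the counts were 1, 1 and 7. Irf8 then differed by 2.64 (limma adjusted p = 0.0184). In deviations from the genotype means, FLT3-ITD samples 1, 3 and 037 correlated best with the wild type sample of their own number. FLT3-ITD sample 2 correlated at 0.038 with wild type sample 3 and at 0.037 with wild type sample 2. Of the called pathway genes, Cst3 lost its call with the replicate block (limma adjusted p = 0.0789). Outside those lists Flt3, Ccr2, Cd48, Hemgn, Slc4a1, Tnfsf11 and Rab44 also lost theirs (0.0505 to 0.178).

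Irf1 read −0.11 without FLT3-ITD sample 1 and −0.051 without FLT3-ITD samples 1 and 037. Irf3 read −0.040 without FLT3-ITD sample 1 and −0.028 as the mean over its probe sets. Its probe set 1416898_a_at read −0.0080 with samples 1 and 037 averaged, −0.017 without FLT3-ITD sample 037, −0.049 without both samples tagged 037 and −0.031 without FLT3-ITD samples 1 and 037. Under that last removal Irf9 read −0.0027 and Ifna5 −0.0030. On leaving out single samples, Irf1 ranged up to 0.51, Irf3 up to 0.48 and 1416898_a_at up to 0.096, while Irf9 ranged from 0.060 to 0.299, Irf2 from −0.74 to −0.32 (the latter without FLT3-ITD sample 1) and Irf7 down to 0.16 without FLT3-ITD sample 1. As the mean over probe sets Hbb-b2 read −1.45. The cause was not tested. The probe set 1448452_at of Irf8 passed with samples 1 and 037 averaged (limma adjusted p = 0.0313) and without wild type sample 037. It did not pass under the other 16 alternatives, with limma adjusted p up to 0.3, found with the replicate block.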
